A study of Mus musculus with 3 samples.

Results

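Input chromatin of the embryonic mouse liver gave 1263 regions without any antibody, and the 918 of them that lie on chromosomes 1 to 19 (mm9) are described here. They were taken by chromosome alone, and regions separated by gaps of at most 100 kb were joined, which gave 223 blocks. The study profiled hepatoblasts, which are fetal liver cells that later form hepatocytes and cholangiocytes, from pooled livers of wild-type C57BL/6 embryos at embryonic day 14.5, enriched by magnetic sorting for the surface protein DLK1. All 3 libraries share that strain, stage, genotype and sort: HNF4A was precipitated in 1 library and FOXA2 in another, and the input received no antibody. Because the livers were pooled and there was 1 library per group, no value below has a replicate error, and intervals cover counting error only. Lists of regions hold no expression values, so the DLK1-positive cell type could not be checked against its markers.

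Input is crosslinked and sonicated chromatin that is sequenced without precipitation, and it serves as the background of a ChIP experiment. In mouse input libraries, reads are known to gather where the assembly holds fewer copies of a repeated sequence than the genome does, among them satellite arrays beside the centromeres and large duplicated gene families. Mouse chromosomes carry the centromere at one end, and the assembly of each autosome begins with a placeholder for that end, so the lowest numbered sequence of a chromosome lies closest to its centromere. HNF4A, a nuclear receptor, regulates many genes of hepatocytes, and the forkhead factor FOXA2 is able to bind nucleosomal DNA. Both were mapped in the same cells, so each input block could be placed beside the nearest site of either factor.

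The 918 autosomal regions covered 0.858 Mb. Their median width was 638 bp (binomial interval of the median 616 to 670 bp), and they ranged from 200 to 12991 bp. The deposited score is a whole number without a stated definition, and it was compared only within a list. In the autosomal input it ran from 12 to 338 with a median of 15, and 166 regions, 18.1%, stood at the lowest value. Only 80 regions scored 50 or more and 20 scored 100 or more. For comparison, the 230 input regions on X had a median score of 16 and a highest score of 75, and the 107 on Y a median of 22 and a highest score of 95. No region on X or Y reached 100, so every input region outside the mitochondrial genome with a score that high was autosomal. Score and width rose together only weakly over the autosomal regions (Spearman rho 0.14 across 918 regions of 1 library, which share depth and are not independent replicates).

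Autosomal input was concentrated in a few places. Of the 223 blocks, 162 (72.6%) held 1 region, 37 held 2 to 4, 18 held 5 to 18, and 6 held 35 or more. Those 6 blocks carried 482 regions, 52.5% of the autosomal list, and 61.4% of its covered length. The 4 with most regions lay on chromosomes 1, 4, 5 and 8 and together held 409 regions, 44.6% of the list. On chromosome 8 a single block accounted for 100 of 113 regions (88.5%), and on chromosome 9 for 35 of 40 (87.5%). Chromosomes 6, 12 and 15 held no block of more than 1 region and had 9, 10 and 6 regions in all.

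**Figure D1:**
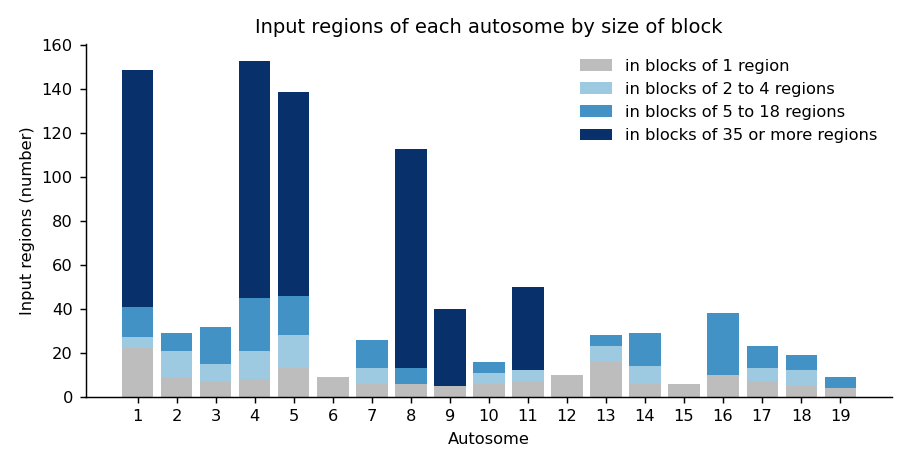
Number of input regions on each autosome, with each bar divided by the size of the block the regions belong to. Chromosomes 1, 4, 5 and 8 hold 113 to 153 regions each, mostly in 1 block of 93 to 108, whereas chromosomes 6, 12 and 15 hold only isolated regions.

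Joining at 100 kb did not run through a dense part of the gap distribution. Of the 695 gaps between neighbours of a block the median was 463 bp, and 443 (63.7%) were 1 kb or shorter. The largest joined gaps were 98399 and 94871 bp, and the smallest left unjoined were 102916 and 107478 bp. There were 15 gaps between 50 and 100 kb and 14 between 100 and 200 kb, while the 204 gaps between blocks had a median of 6.05 Mb.

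The largest blocks were of 2 kinds that differed in score, density and neighbouring peaks. The block with most covered sequence lay on chromosome 1 at 84950107 to 85322311, where 108 regions with a median score of 18 (12 to 38) covered 30.8% of 372 kb. The block on chromosome 4 at 144977862 to 145486121 also held 108 regions, with a median score of 14 (12 to 27), over 508 kb. On chromosome 8 at 19679368 to 19975545, 100 regions had a median score of 18.5 and a highest score of 56. This block included the widest autosomal region, 12991 bp at 19725092 to 19738082, whose score was only 32. The block on chromosome 5 at 93882355 to 94422592 held 93 regions with a median score of 14 (12 to 22) and covered 18.2% of 540 kb, the longest span of the 4. These blocks were therefore long, loosely filled and low in score: their medians lay within 4 units of the autosomal median of 15.

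The other 2 large blocks began at the centromeric end of their chromosomes. On chromosome 9 at 2999923 to 3038419, 35 regions with a median score of 66 (17 to 227) covered 57.9% of 38.5 kb. On chromosome 11 at 3000282 to 3100044, 38 regions with a median score of 46 (13 to 110) covered 76.6% of 99.8 kb. Both were shorter and more densely covered than the 4 blocks on chromosomes 1, 4, 5 and 8. Between them they held 40 of the 80 autosomal regions that scored 50 or more. On chromosome 11 the regions were the broader ones, with a median width of 996 bp and 3 regions between 8392 and 9567 bp, whereas those on chromosome 9 had a median of 406 bp.

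Within large blocks, wider regions also scored higher, to differing degrees. Spearman's rho between score and width was 0.77 over the 35 regions on chromosome 9, 0.71 over the 108 on chromosome 1 and 0.52 over the 100 on chromosome 8. It was 0.46 on chromosome 11, 0.33 in the block of 108 regions on chromosome 4 and 0.22 on chromosome 5. Regions of a block adjoin one another, so these are descriptions of single stretches of sequence. Neighbours were often all but contiguous: 37 of the 107 gaps of the chromosome 1 block, and 28 of the 99 gaps of the chromosome 8 block, were 100 bp or shorter. The 4 low-scoring blocks also had breaks, with 3 to 11 gaps over 10 kb each, while the blocks on chromosomes 9 and 11 had none.

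**Figure D2:**
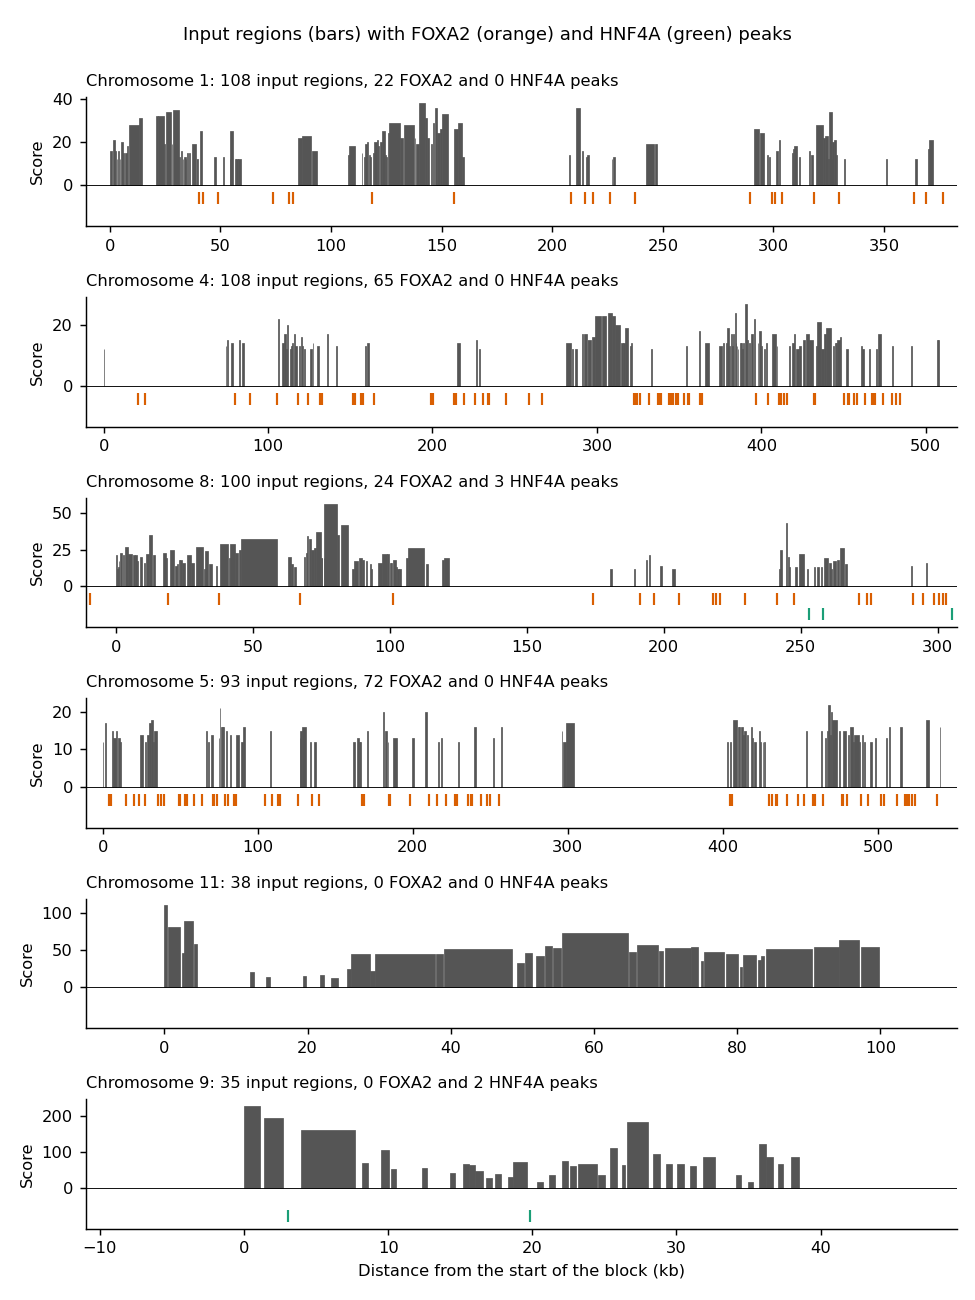
The 6 blocks of 35 or more input regions, each drawn from its own start in kb; bars mark input regions (width to scale, height the deposited score), and ticks below the axis mark the centres of FOXA2 (orange) and HNF4A (green) peaks inside the block or within 10 kb. The 4 upper blocks score 56 at most and are interspersed with 22 to 72 FOXA2 peaks, and the 2 lower ones reach 110 and 227 and hold no FOXA2 peak.

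Next in size came 4 further blocks, all of low score. On chromosome 5 at 14899827 to 15005472 there were 18 regions, on chromosome 3 at 92004527 to 92042782 there were 17, and on chromosome 14 at 42260793 to 42304406 there were 15. Each had a median score of 14, and their highest scores were 28, 22 and 19. The fourth, on chromosome 16 at 3231572 to 3350615, held 16 regions with a median of 15 and a highest score of 23. Its largest internal gap, 94871 bp, was close to the limit for joining.

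The highest scores occurred in blocks of differing size. The 4 regions of a block on chromosome 2 at 98502280 to 98507485 scored 338, 236, 171 and 233 in order of position, within 5.21 kb. The 10 highest autosomal regions were these 4, another 4 in the block at the start of chromosome 9 (227, 192, 181 and 159), and 2 that stood alone. The isolated ones lay on chromosome 9 at 35112694 to 35113208 (score 219) and on chromosome 15 at 74915964 to 74917561 (score 192). Of the 20 regions that scored 100 or more, 8 stood alone. None of the regions in the chromosome 1, 4, 5 and 8 blocks did so, since their highest scores were 38, 27, 22 and 56. The median score did not rise steadily with block size. It was 16 over isolated regions, 14 over regions in blocks of 2 to 4 and of 5 to 18, and 16 over those in blocks of 35 or more. The upper quartiles were 27.8, 22.8, 18 and 23. The last class pools the chromosome 9 and 11 start blocks (medians 66 and 46) with 4 blocks whose medians were 14 to 18.5. Isolated regions were the narrowest, with a median of 441 bp against 726 bp in blocks of 35 or more. The highest score of an autosome varied from 36 on chromosome 7 to 338 on chromosome 2.

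**Figure D3:**
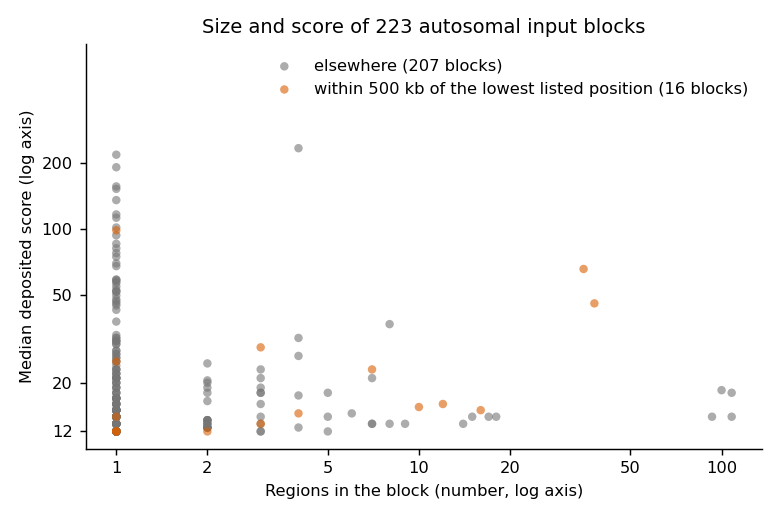
Each point is 1 of the 223 blocks, placed by its number of regions (log axis) and the median deposited score of those regions (log axis); blocks that start within 500 kb of the lowest listed autosomal position are orange. Isolated regions span scores of 12 to 219, blocks of 93 to 108 regions have medians of 14 to 18.5, and the orange points at 66 and 46 are the blocks on chromosomes 9 and 11.

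Chromosome ends were looked at as a group chosen after the positions had been seen. Within 500 kb of the lowest listed autosomal position, 2999923, there were 16 blocks on 12 of the 19 autosomes, with 136 regions in all. The median score there was 33.5 and that of the 782 regions elsewhere 15, but the chromosome 9 and 11 blocks provided 73 of the 136. Several others were low: the blocks of lowest position on chromosomes 3, 12, 13 and 19, which start at 3001564, 3000866, 3006793 and 3213306, scored 12 at most. Others were higher, including chromosome 4 at 3007994 to 3018310 (highest score 95), chromosome 12 at 3109855 to 3110272 (99) and chromosome 18 at 3004117 to 3011342 (7 regions, highest score 93). At the opposite end, 5 blocks ended at the highest position that any of the 3 lists gives for their chromosome, on chromosomes 1, 2, 13, 16 and 19. The block on chromosome 2 at 181652006 to 181748087 was the largest of these, with 8 regions, a median score of 37 and a highest score of 59.

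No autosomal input region overlapped a FOXA2 or HNF4A peak by even 1 bp. The names of the ChIP lists contain the tag -INPUT, and peaks that overlap input may have been removed before deposit. This count therefore says nothing about whether signal was present at those positions. Peaks did come close. Of 9095 autosomal FOXA2 peaks, 21 lay within 100 bp of an input region, 160 within 1 kb and 414 within 10 kb, and the closest was 8 bp away. Of 11558 autosomal HNF4A peaks, 3 lay within 100 bp, 12 within 1 kb and 34 within 10 kb, and the closest was 27 bp away.

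Most input blocks had no peak of either factor close by, and where there was one it was more often FOXA2. A FOXA2 peak lay inside the span of a block or within 10 kb of its ends at 73 of 223 blocks (32.7%, exact binomial interval 26.6 to 39.3%), and an HNF4A peak at 23 (10.3%, 6.65 to 15.1%). As a reference, 6.55% of the autosomal span between the lowest and highest listed positions lay within 10 kb of a FOXA2 peak and 7.77% within 10 kb of an HNF4A peak. Of the blocks, 60 had FOXA2 only within that distance, 10 had HNF4A only, 13 had both and 140 had neither. FOXA2 was the nearer factor at 144 blocks and HNF4A at 74, and at 5 the distances were equal, although the autosomes hold more HNF4A peaks. The median distance to the nearest FOXA2 peak was 62.1 kb and to the nearest HNF4A peak 169 kb. At 75 blocks neither factor had a peak within 100 kb. The shares moved with the limit, to 22.9% for FOXA2 and 5.38% for HNF4A at 2 kb and to 46.2% and 26.9% at 50 kb. With input regions and peaks at or above their list's median score alone the FOXA2 share was 19.2% and the HNF4A share 8%. The references of 6.55% and 7.77% were computed for 10 kb and all peaks, so they do not apply to these settings.

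Long blocks offer more sequence for a peak to fall in, so isolated regions are the fairer comparison with the autosomal share. Among the 162 isolated regions, 34 (21.0%, exact interval 15.0 to 28.1%) had a FOXA2 peak within 10 kb, against 6.55% of the autosomal span. For HNF4A the number was 11 (6.79%, 3.44 to 11.8%), against 7.77%. At 100 kb the isolated regions had FOXA2 nearby in 51.9% of cases and HNF4A in 37.7%, against autosomal shares of 38.1% and 38.5%. These shares come from 1 library per factor, and neither neighbouring peaks nor neighbouring input regions are independent. For example, the isolated regions on chromosome 13 from 65476801, 65599519 and 65839646 lie close together, and each had FOXA2 within 10 kb. The intervals may therefore be too narrow, and the difference from the autosomal share was not tested. Among larger blocks the share with FOXA2 within 10 kb was 21 of 37 for 2 to 4 regions (56.8%), 14 of 18 for 5 to 18 regions (77.8%) and 4 of 6 for 35 or more. For HNF4A it was 6 of 37, 4 of 18 and 2 of 6.

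**Figure D4:**
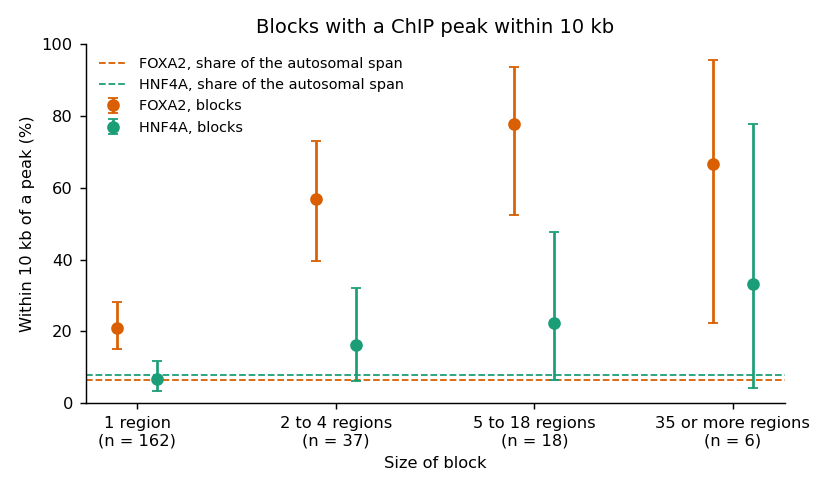
Percentage of blocks with a FOXA2 (orange) or HNF4A (green) peak inside or within 10 kb, by size of block, with exact binomial 95% intervals; dashed lines give the share of the autosomal span within 10 kb of a peak of each factor (6.55% and 7.77%). FOXA2 lies above its line in every size class, starting with 21.0% of isolated regions. HNF4A lies at its line for isolated regions (6.79%) and above it in the larger classes (16.2%, 22.2% and 33.3%), with intervals that include the line. Long blocks offer more sequence for a peak to fall in, so the lines are a fairer reference for isolated regions than for larger blocks.

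Isolated regions were also compared by score. A FOXA2 peak lay within 10 kb of 17 of the 50 isolated regions that scored 12 or 13 (34%, 21.2 to 48.8%), 8 of the 49 that scored 14 to 19 (16.3%), 6 of the 38 that scored 20 to 49 (15.8%) and 3 of the 25 that scored 50 or more (12%, 2.55 to 31.2%). The intervals of the lowest and highest groups overlap, and the score limits were chosen after the scores had been seen. For HNF4A the numbers were 2 of 50, 4 of 49, 2 of 38 and 3 of 25. Of the 8 isolated regions that scored 100 or more, the closest to FOXA2 lay on chromosome 10 at 21861974 to 21862972 (score 102), 3505 bp away, and the closest to HNF4A on chromosome 14 at 9119013 to 9119499 (score 113), 2373 bp away. The farthest from both was on chromosome 12 at 68160081 to 68160900 (score 157), 867401 bp from FOXA2 and 1046147 bp from HNF4A. The other 5 lay 14156 to 684488 bp from FOXA2 and 13117 to 684420 bp from HNF4A. The block of highest score, on chromosome 2, was 324861 bp from FOXA2 and 2291893 bp from HNF4A.

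In all, 453 FOXA2 peaks, 4.98% of the autosomal list (exact interval 4.54 to 5.45%), lay inside or within 10 kb of an input block, against 36 HNF4A peaks, 0.311% (0.218 to 0.431%). The share of the autosomal span taken up by the blocks and their 10 kb flanks was not computed, so neither percentage has a reference. Whether 36 HNF4A peaks are few for that length of sequence was not tested. Of the FOXA2 peaks, 348 fell between input regions inside the span of a block. They were concentrated: the 5 blocks with most FOXA2 peaks accounted for 237, or 52.3%. Without the 6 blocks of 35 or more regions 270 FOXA2 peaks were counted, and without chromosomes 1, 4, 5 and 8 there were 118 FOXA2 and 17 HNF4A peaks. The block of 93 input regions on chromosome 5 held 72 FOXA2 peaks and the block of 108 regions on chromosome 4 held 65, and neither had an HNF4A peak within 10 kb. The chromosome 8 block had 24 FOXA2 and 3 HNF4A peaks, and the large chromosome 1 block 22 and 0. In the stretches that input regions left uncovered, this came to 163 FOXA2 peaks per Mb in the chromosome 5 block, 165 in the chromosome 4 block, 97.6 in the chromosome 8 block and 81.5 in the chromosome 1 block, against 3.78 per Mb over the autosomal span. Such densities were not particular to the largest blocks. Smaller blocks on chromosomes 5 (from 14899827), 3, 14 and 16 had 181, 166, 77.9 and 65.8 per Mb, from 16, 4, 2 and 7 peaks. The chromosome 9 and 11 start blocks had 0. Densities were computed only for the 10 blocks with most regions, so blocks with fewer regions may be denser. For HNF4A the chromosome 9 start block had 123 per Mb and the chromosome 8 block 10.3, each from 2 peaks, against 4.81 over the autosomal span. The other blocks given here had no HNF4A peak in these stretches, apart from blocks whose density was not computed.

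Larger blocks span more sequence, and no count per Mb was made by size class. As raw counts, FOXA2 peaks were more numerous beside larger blocks. There were 54 beside the 162 isolated regions and 54 beside the 37 blocks of 2 to 4 regions. Beside the 18 blocks of 5 to 18 there were 162, and beside the 6 blocks of 35 or more 183. Single blocks departed from this order. A block of only 14 regions on chromosome 1 at 90111798 to 90195739, with scores of at most 17, had 40 FOXA2 peaks inside or within 10 kb, and one of 7 regions on chromosome 4 at 41729112 to 41893719 had 36. Further blocks with many FOXA2 peaks were the 18 regions on chromosome 5 from 14899827 (17 peaks) and the 10 regions at the start of chromosome 17 at 3005166 to 3082953 (14 peaks). On chromosome 4, the 8 regions at 145823196 to 145865663 had 10. On chromosome 7 at 58202829 to 58203917 an isolated region of score 13 had 5 FOXA2 peaks within 10 kb. In contrast, the dense blocks at the start of chromosomes 9 and 11 had none, and their nearest FOXA2 peaks were 3614068 and 132307 bp away. In total 18 blocks had 5 or more FOXA2 peaks inside or within 10 kb. The highest input scores of these 18 blocks ranged from 12 to 56.

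FOXA2 peaks beside input blocks were close to input regions in median width, with fewer very broad ones. Their median width was 618 bp (interquartile range 426 to 877 bp), against 364 bp (330 to 413 bp) for the other 8642 autosomal FOXA2 peaks and 638 bp (422 to 1081 bp) for the input regions. Widths over 500 bp were found in 291 of 453 FOXA2 peaks beside blocks (64.2%), in 10.5% of the others and in 64.9% of input regions. Peaks beside blocks were also low in score, with a median of 13 against 15, and 63.8% of them scored 11 to 13 against 36.5% of the others. Within that band of scores the widths still differed: 63.7% of the 289 peaks beside blocks exceeded 500 bp, against 16.1% of the 3153 others. Among peaks that scored 14 or more the shares were 65.2% of 164 and 7.29% of 5489. The share of broad peaks was 57.4% beside isolated regions, 66.7% beside blocks of 35 or more regions and 63.9% beside the rest. It was also raised farther out, at 43.9% of the 230 FOXA2 peaks that lay farther than 10 kb from every block but within 100 kb of an input region. Of the 453, 11 (2.43%) overlapped an HNF4A peak, against 32.6% of the other autosomal FOXA2 peaks. Only 36 HNF4A peaks lay beside blocks, which limits how many of the 453 could overlap one. Counted from the HNF4A list, 10 of these 36 (27.8%) overlapped a FOXA2 peak, against 24.3% of the other autosomal HNF4A peaks. Whether peaks of this width and score mark FOXA2 on the DNA was not tested.

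**Figure D5:**
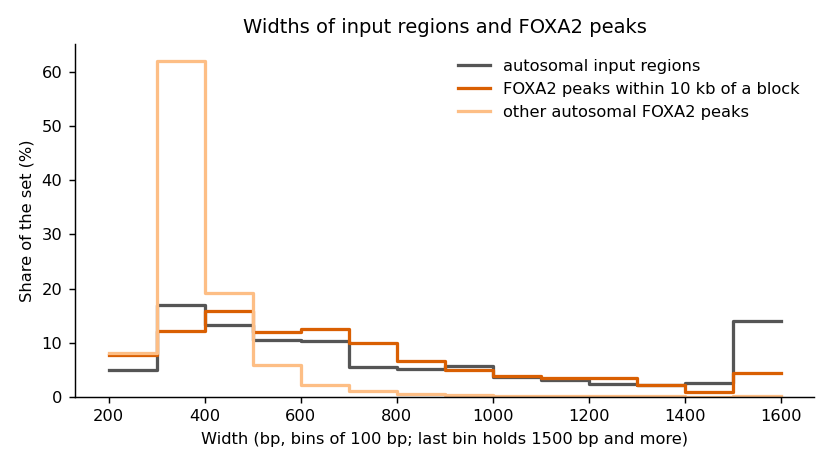
Width of autosomal input regions (grey), of the 453 FOXA2 peaks inside or within 10 kb of an input block (dark orange) and of the other 8642 autosomal FOXA2 peaks (light orange), as the percentage of each set per 100-bp bin; the last bin takes all widths of 1500 bp or more. The other FOXA2 peaks are gathered at 300 to 400 bp (62.1%), whereas the peaks beside blocks spread over wider bins; 4.42% of them and 13.9% of input regions are 1500 bp or wider.

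The contrast between the factors was present among higher- and lower-scoring peaks. Of the 4925 autosomal FOXA2 peaks at or above the list's median score of 15, 111 lay beside a block (2.25%, 1.86 to 2.71%), and of the 4170 below it 342 did (8.20%, 7.39 to 9.08%). For HNF4A the shares were 0.312% of 6080 peaks at or above the median of 23 and 0.310% of 5478 below it. The FOXA2 list reaches down to a score of 11 and the HNF4A list to 16, and the scores of different lists have no common scale, so equal ranks need not mean equal evidence.

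The 36 HNF4A peaks beside blocks had a median score of 23, the same as the other 11522 autosomal HNF4A peaks, but 15 of them (41.7%) scored 16 to 18 against 25.5% of the others. Their median width was 473 bp against 430 bp, and 13 of 36 (36.1%) exceeded 500 bp against 30.6%. Overlap with FOXA2 was found in 10 of the 36 (27.8%) and in 24.3% of the others. The block with most of them was the 14-region block on chromosome 1 from 90111798, with 6 HNF4A peaks, the highest of which scored 112 at 90156626 to 90157040 and overlapped a FOXA2 peak. Outside that block, a peak of score 82 on chromosome 10 at 80638902 to 80639302 lay 1360 bp from an input region. The block at the start of chromosome 9 held 2 HNF4A peaks between its input regions, at 3002805 to 3003179 (score 63) and at 3019637 to 3019856 (score 42). They lay 172 and 80 bp from the nearest input region and overlapped no FOXA2 peak. At 375 and 220 bp they were narrower than the median autosomal HNF4A peak. The first lies between input regions that scored 192 and 159, and whether either reflects HNF4A was not tested.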

How the data were processed

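The authors deposited 1 headerless list of regions per library, with chromosome, start, end and a whole-number score whose definition is not stated; per the submitters' processing notes, positions are on mm9. Not given in the sources used here are the aligner, the peak caller, its threshold and any subtraction of input; sequencing depth is unknown. Positions were read as 1-based with both ends included, and a closing line without a region in the FOXA2 list was skipped. Regions on chromosomes 1 to 19 were ordered and joined where at most 100 kb lay between them. Distances are differences of facing ends, 0 where intervals overlap, and a peak counted as beside a block when it lay inside its span or within 10 kb. Shares carry exact Clopper-Pearson 95% intervals and medians binomial order-statistic intervals. No test between groups was made, because each group is 1 library. The code was tested on simulated blocks. Computation used pandas 2.3.3 and numpy 2.4.6 under Python 3.11.15, intervals scipy 1.17.1 and plots matplotlib 3.10.9.

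Blocks named were the 10 with most regions, the 10 highest regions and up to 10 with 5 or more peaks of a factor; other named regions were chosen after their values were seen. Members, rules and size classes were chosen with earlier results of these data known. Genes, repeats and sequence at the blocks were not analysed here, since the annotation used covers another build.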

Additional observations from a re-analysis of the deposited data

How the results depend on the processing

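The number of blocks, 223, fell to 125 when only scores at or above the list median were kept. The part of regions in blocks of 5 or more, 71.7%, was 67.2% with a joining gap of 20 kb, 74.8% with 500 kb, 67.9% without the chromosome 1 block of 108 regions, 51.1% without chromosomes 1, 4, 5 and 8, and 40.4% without the 6 blocks of 35 or more regions. The median score of 15 became 22 at the score limit, 18 without the 4 autosomes and 17 without regions at the lowest score; the median width of 638 bp became 698.5, 547 (without the 4 autosomes) and 557 bp (without the 6 blocks). Blocks near FOXA2, 32.7%, were 19.2% at the score limit, 22.9% at 2 kb and 46.2% at 50 kb; those near HNF4A, 10.3%, were 5.38% at 2 kb and 26.9% at 50 kb. The 453 FOXA2 peaks became 67 at the score limit, which also drops low FOXA2 peaks, 118 without the 4 autosomes and 270 without the 6 blocks. The 36 HNF4A peaks became 12, 17, and 22 and 123 at 2 and 50 kb. Input regions with a peak overlapping, 0, became 53 when a gap of 200 bp counted. The other 57 values stayed within 1.5 times or within the interval of the main value. Leaving out the 6 blocks, the chromosome 9 and 11 blocks, or the lowest score was chosen after seeing the data. No paired analysis was possible because each group has 1 library.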
